A study of Rattus norvegicus with 11 samples.

Results

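The microRNAs miR-103 and miR-107 come from introns of the pantothenate kinase genes, whose enzymes carry out the first committed step of coenzyme A synthesis. In the deposited count table every sense row named miR-103 or miR-107 was taken, whatever its locus or arm, which gave 5 of 950 rows. These are miR-103-2-3p and miR-103-2-5p on chromosome 3, miR-103-3p on chromosome 10, and miR-107-3p and miR-107-5p on chromosome 1. On Rnor_5.0, the build of the count table, the 3p rows lie at chr3:130329303-130329325 (plus strand), chr10:20480402-20480424 (plus strand) and chr1:260347524-260347546 (minus strand). Small RNA of pancreatic islets, the endocrine clusters in which insulin-secreting beta cells predominate, was sequenced from Sprague-Dawley rats of 3 months (adult males, 6 libraries) and of postnatal day 10 (P10, 5 libraries). The labels call both groups control animals, with no mutation or drug named, and each library a biological replicate. They do not say whether a library pools animals, and they name a sex for the adults alone, so that age and sex cannot be told apart. If replicates share animals or cultures, the p-values reflect technical spread in place of part or all of the spread between animals.

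A microRNA guides Argonaute to target mRNAs chiefly through its seed, bases 2 to 8 counted from the 5′ end. miR-103 and miR-107 are usually regarded as 1 family, since their 3p arms carry the same seed. In human and mouse cells they are known to repress Dicer, the enzyme that matures microRNAs. In mouse liver and fat, raising them lowers insulin sensitivity and blocking them improves it, with caveolin-1 as a described target.

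The 2 mature 3p sequences, from RefSeq on GRCr8 with the seed in capitals, show how little separates the family. The first is placed at chr3:138963278-138963300, plus strand, and the second at chr1:241750431-241750453, minus strand.
miR-103-3p: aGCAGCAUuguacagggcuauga
miR-107-3p: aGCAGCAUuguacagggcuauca
They share 22 of 23 bases and differ by G22C, with positions counted from 1 at the 5′ end and the miR-103 base given first. A read that ends before position 22 therefore cannot be given to miR-103 or to miR-107. The read lengths are not in the tables used here.

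The 3 hairpins, also from RefSeq on GRCr8, are shown because they set what counting could tell apart. The 3p arm is in capitals. The first spans chr3:138963227-138963312, plus strand, the second chr10:20748474-20748559, plus strand, and the third chr1:241750418-241750504, minus strand.
Mir103a2: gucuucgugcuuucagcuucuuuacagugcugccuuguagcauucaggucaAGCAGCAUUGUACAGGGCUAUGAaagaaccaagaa
Mir103a1: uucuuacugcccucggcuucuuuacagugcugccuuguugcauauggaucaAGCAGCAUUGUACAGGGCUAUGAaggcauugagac
Mir107: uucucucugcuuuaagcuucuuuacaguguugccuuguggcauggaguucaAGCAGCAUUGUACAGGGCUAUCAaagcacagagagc
The 3p arm is identical at both miR-103 loci, and so are 3 bases before it and 1 base after it, a shared run of 27 bases. A read within that run fits both loci, so the division of counts between the chromosome 3 and chromosome 10 rows depends on the authors' counting rule, which is not given in the sources used here. In the RefSeq gene table Mir103a2 lies 26.8 kb inside Pank2, Mir103a1 15.3 kb inside Pank3 and Mir107 57.6 kb inside Pank1, each on the strand of its host and measured from the host's start. The mRNAs of the hosts were not measured here.

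The libraries held between 1430412 and 4468745 counts, so that 3 counts, taken as the detection floor, correspond to 0.623 to 2.54 CPM. CPM are counts scaled to a common library size with TMM factors. Of 898 features left after each name was entered once, 457 passed the abundance filter and were tested. Among these, 232 (50.8%) passed edgeR's quasi-likelihood test for age at a Benjamini-Hochberg adjusted p of 0.05, 97 of them higher in adults (21.2%) and 135 lower (29.5%). Library totals without TMM factors gave 54 higher and 187 lower, and upper-quartile scaling gave 127 and 103. Summed marker microRNAs of several cell types differed between the ages, and in bulk islets the number of cells of a type and the RNA per cell cannot be told apart. The mesenchymal list (8 features, 7 tested: 0 higher, 5 lower) summed to between 25764 and 91995 CPM in adults and between 93399 and 226220 CPM at P10. The islet endocrine list (12 features, 9 tested: 6 higher, 1 lower) summed to 257030 to 329310 CPM in adults and 115960 to 168710 CPM at P10. Most of that sum was miR-375-3p, at 251260 to 325040 CPM in adults and 113160 to 165960 CPM at P10. The ductal or epithelial list (6 features, 5 tested: 3 higher, 0 lower) summed to 48869 to 59661 CPM in adults and 24830 to 38548 CPM at P10. Most of that sum was miR-141-3p, at 45199 to 55868 CPM in adults and 22510 to 35371 CPM at P10. The leukocyte list (7 features, 4 tested: 0 higher, 1 lower) summed to 249 to 832 CPM in adults and 681 to 1426.5 CPM at P10. The acinar list (6 features, 3 tested: 2 higher, 0 lower) summed to at most 127 CPM in adults and 37.7 CPM at P10. The erythroid list (4 features, 2 tested: 0 higher, 0 lower) summed to at most 63.8 CPM in adults and 72.3 CPM at P10. The endothelial marker miR-126 had no sense row under that name, and none of the listed markers was at 0 in every library.

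miR-103 was an abundant islet microRNA. With TMM scaling the level of its chromosome 3 row differed little between ages, while 50.8% of all tested features passed the age test. With library totals alone that row passed as lower in adults (log2 change -0.36, edgeR adjusted p = 0.0169). The chromosome 3 row, miR-103-2-3p, ranked 54th of the 457 tested features by mean level. It stood at 1403, 1473, 1504, 1328, 1478 and 1405 CPM in adult replicates 1 to 6, against 1641, 1419, 1479.5, 1458 and 1654 CPM in P10 replicates 1, 3, 4, 5 and 6. The ages overlapped, with P10 replicates 1 and 6 above every adult library and the other 3 P10 libraries inside the adult range.

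The mean of miR-103-2-3p was 1432 ± 65.2 CPM in the 6 adult libraries and 1530.5 ± 109 CPM in the 5 P10 libraries (SD). Its log2 fold change, adult over P10, was -0.096 ± 0.088 (SE; edgeR adjusted p = 0.375), a 0.935-fold level with a 95% interval of 0.820 to 1.07. A p that misses the threshold does not show that the levels were the same. With TMM scaling, only 31 of the 457 tested features had a smaller log2 change in size. The spread between libraries was also small, a coefficient of variation of 4.55% in adults and 7.14% at P10, where counting alone would give 2.00% and 1.49%. Among the 227 features of at least 50 CPM, 3 varied less in adults and 15 varied less at P10. Counting noise grows as the level falls, so this ranking favours abundant features such as miR-103-2-3p. The part of level in it was not tested.

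miR-107-3p, the only family member from the Pank1 gene, was at 142, 161, 198, 148.5, 158 and 158 CPM in adult replicates 1 to 6. It was at 152, 138, 127, 135 and 135.5 CPM in P10 replicates 1, 3, 4, 5 and 6. Most adult libraries lay above the P10 range, but adult replicates 1 and 4 lay below P10 replicate 1. The means were 161 ± 19.4 CPM in the 6 adult libraries and 138 ± 9.10 CPM in the 5 P10 libraries (SD), giving a log2 fold change of 0.23 with an SE of 0.13 (edgeR adjusted p = 0.141). The 95% interval of the fold was 0.972 to 1.41.

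The chromosome 10 row, miR-103-3p, had the lowest level of the 3p rows. It was at 63.5, 57.6, 68.7, 81.5, 69.0 and 63.3 CPM in adult replicates 1 to 6, against 51.8, 57.8, 53.3, 52.7 and 58.4 CPM in P10 replicates 1, 3, 4, 5 and 6. All adult libraries except replicate 2 lay above every P10 library. The means were 67.3 ± 8.13 CPM in the 6 adult libraries and 54.8 ± 3.06 CPM in the 5 P10 libraries (SD), giving a log2 fold change of 0.29 with an SE of 0.13 (edgeR adjusted p = 0.0717). These levels rest on 75 to 187 counts a library in adults and 86 to 281 at P10, for which counting alone gives a coefficient of variation of 9.20% and 7.82%, against 12.1% and 5.58% observed.

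**Figure D1:**
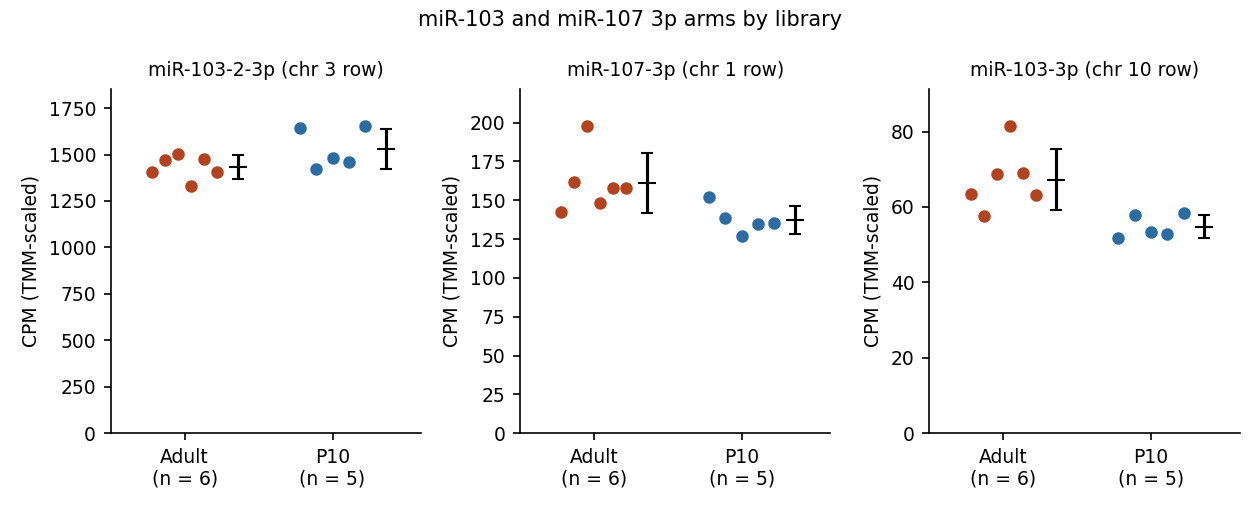
Level of each 3p row in every library, in TMM-scaled CPM on axes from 0 (points: libraries; black: mean ± SD). Adult and P10 points of miR-103-2-3p overlap around means of 1432 and 1530.5 CPM, and the adult points of the other rows lie mostly above the P10 points.

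The order of levels was the same at both ages, miR-103-2-3p above miR-107-3p above miR-103-3p, and neighbours in that order did not overlap in any library. The mean of miR-103-2-3p was 8.89 times that of miR-107-3p in adults and 11.1 times at P10. Ligation and PCR favour some sequences, and the chromosome 3 and 10 rows hold the same mature sequence, so these ratios describe counts and not molecules.

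By edgeR's test 0 of the 3 tested 3p rows passed for age, against 50.8% of all tested features, and 0 had ages that did not overlap, against 30% of all features. At an unadjusted p under 0.05 the number was 1 of the 3 rows. The exact share of all features at that p was not counted. It is at least 50.8%, since an adjusted p is never below the unadjusted one. limma-voom called 0 of the 3 rows, against 221 of 457 features. DESeq2 called 2, the chromosome 10 row and miR-107-3p, both higher in adults. Over all features DESeq2 called 248 of 457, 127 of them higher in adults. With the mesenchymal list's mean level added to the fit, a choice made once the values had been seen, the log2 changes were -0.11 ± 0.18 for miR-103-2-3p, 0.092 ± 0.25 for miR-107-3p and 0.10 ± 0.26 for miR-103-3p (SE; edgeR adjusted p = 0.776, 0.871 and 0.858). That level lay close to age itself (Pearson r = -0.88 with age coded 1 for adult, over 11 libraries, as a description). Over all tested features the median SE was 0.44 in that fit, against 0.22 without it, and 28 features were called, against 232. Age and the mesenchymal level can hardly be told apart in these libraries. The part of the other marker lists was not tested. Summed into 1 feature, likewise a later choice, the 3 rows had a log2 change of -0.053 ± 0.087 (SE; edgeR adjusted p = 0.621).

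The sign of the change of miR-103-2-3p and of miR-107-3p depended on the scaling, so the rows were also set against the median of all tested features. That median was -0.11 with TMM; using library totals alone shifted it by -0.26, and upper-quartile scaling by 0.16. The log2 change of miR-103-2-3p was -0.36 with library totals alone, which passed as lower in adults (edgeR adjusted p = 0.0169), and 0.067 with upper-quartile scaling, which did not pass (0.634). Its distance from the median of all features was 0.015 with TMM, 0.0061 for library totals alone and 0.014 under upper-quartile scaling. With TMM, 222 features had a higher log2 change and 234 a lower one, so the chromosome 3 row sat in the middle of the islet profile.

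The other 3p rows stood above that middle under each scaling. miR-107-3p was 0.34 above the median with TMM, 0.33 for library totals alone and 0.34 under upper-quartile scaling. The chromosome 10 row was 0.41 above it with TMM, 0.41 for library totals alone and 0.40 under upper-quartile scaling. Their own log2 changes were 0.40 (miR-107-3p) and 0.46 (miR-103-3p) with upper-quartile scaling, both of which passed as higher in adults (edgeR adjusted p = 0.0302 and 0.0221). They were -0.038 and 0.034 with library totals alone, neither of which passed (0.861 and 0.869).

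**Figure D2:**
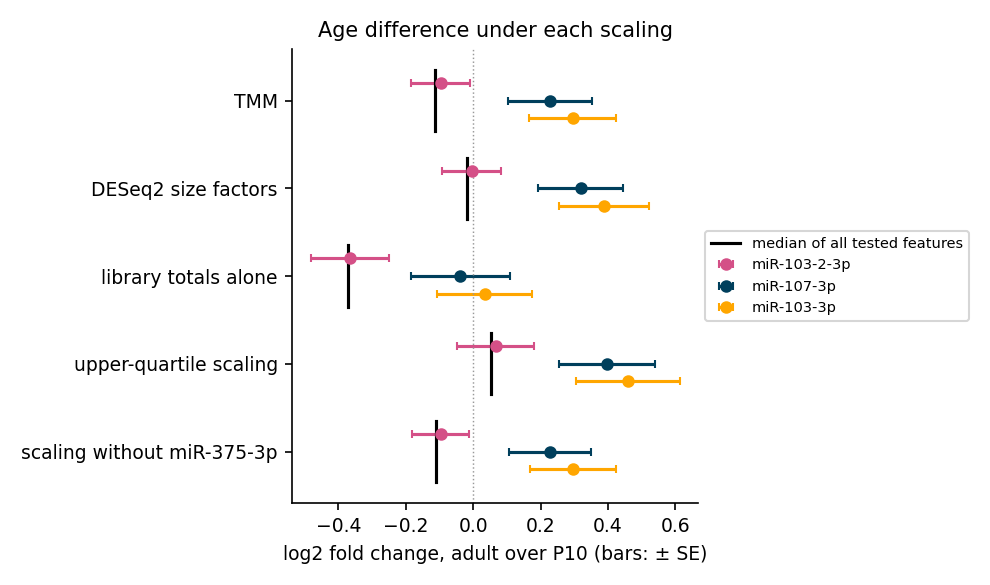
Log2 fold change, adult over P10, of the 3 3p rows under 5 scalings (points ± SE; black bars: median of all tested features in that fit). The miR-103-2-3p points stay next to the black bar, from -0.36 with library totals alone to 0.067 with upper-quartile scaling, and the other rows lie to its right.

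As a share of each library's counts, which uses no scaling factor, miR-103-2-3p took 0.132% ± 0.0102 in the 6 adult libraries and 0.170% ± 0.0251 in the 5 P10 libraries (SD). The difference, adult minus P10, came to -0.0380 points (exact permutation over 462 splits, two-sided p = 0.0130; adjusted over 4 within-library measures, 0.0173). The ages overlapped, as P10 replicate 3 held 0.132% and the adult libraries 0.116% to 0.142%. miR-107-3p took 0.0149% ± 0.00202 in the 6 adult libraries and 0.0153% ± 0.00216 in the 5 P10 libraries (SD; exact permutation p = 0.742, adjusted 0.742). miR-375-3p, the leading islet microRNA, averaged 287810 ± 26974 CPM in the 6 adult libraries and 143100 ± 21137 CPM in the 5 P10 libraries (SD) and is part of that total. With its counts removed from the total, the difference for miR-103-2-3p was -0.0237 percentage points (exact permutation p = 0.156).

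The balance between miR-103 and miR-107 differed between the ages. For each count of miR-107-3p there were 9.87, 9.12, 7.60, 8.94, 9.34 and 8.88 counts of miR-103-2-3p in adult replicates 1 to 6, against 10.8, 10.3, 11.7, 10.8 and 12.2 in P10 replicates 1, 3, 4, 5 and 6. The ages did not overlap: the highest adult ratio, in replicate 1, lay below the lowest P10 ratio, in replicate 3. Among single features, 30% of those tested had ages that did not overlap. How often the ratio of another pair of features separates the ages was not counted, so the separation is not shown to be particular to this pair. The ratio averaged 8.96 ± 0.756 in the 6 adult libraries and 11.1 ± 0.779 in the 5 P10 libraries (SD). On the log2 scale the difference was -0.32, a 0.803-fold ratio in adults (two-sided exact permutation test, p = 0.00433; adjusted over the 4 measures, 0.0130). Both counts come from the same library, so no scaling enters this ratio, but it rests on the single base that separates the sequences. The part of the marker lists in this ratio was not tested.

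The rows of the same mature sequence also differed in balance between the ages. The chromosome 10 row held 4.33%, 3.77%, 4.37%, 5.78%, 4.46% and 4.31% of the miR-103 3p counts in adult replicates 1 to 6, against 3.06%, 3.91%, 3.48%, 3.49% and 3.41% in P10 replicates 1, 3, 4, 5 and 6. The lowest adult share, in replicate 2, lay below the highest P10 share, in replicate 3, and the remaining libraries were separated by age. The mean was 4.50% ± 0.673 in the 6 adult libraries and 3.47% ± 0.303 in the 5 P10 libraries (SD). The difference, adult minus P10, came to 1.03 points (two-sided exact permutation, p = 0.00649; adjusted 0.0130). Exact (Clopper-Pearson) 95% intervals cover counting error only. They were 4.81% to 6.88% in adult replicate 4, the highest adult share, and 2.61% to 3.57% in P10 replicate 1, the lowest P10 share. Nearer the middle of each age the intervals could overlap, with 3.42% to 5.39% in adult replicate 1 and 3.02% to 3.98% in P10 replicate 4. This measure was chosen after the counts of the rows had been seen.

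Set against the chromosome 10 row in place of the chromosome 3 row, miR-107-3p overlapped between the ages. For each chromosome 10 count there were 2.42 ± 0.392 counts of miR-107-3p in the 6 adult libraries and 2.52 ± 0.247 in the 5 P10 libraries (SD). The log2 ratio of the chromosome 10 row to miR-107-3p differed by 0.067 between ages (exact permutation p = 0.621). With the counts of both miR-103 rows summed, the log2 ratio to miR-107-3p differed by -0.30 (exact permutation p = 0.00433).

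**Figure D3:**
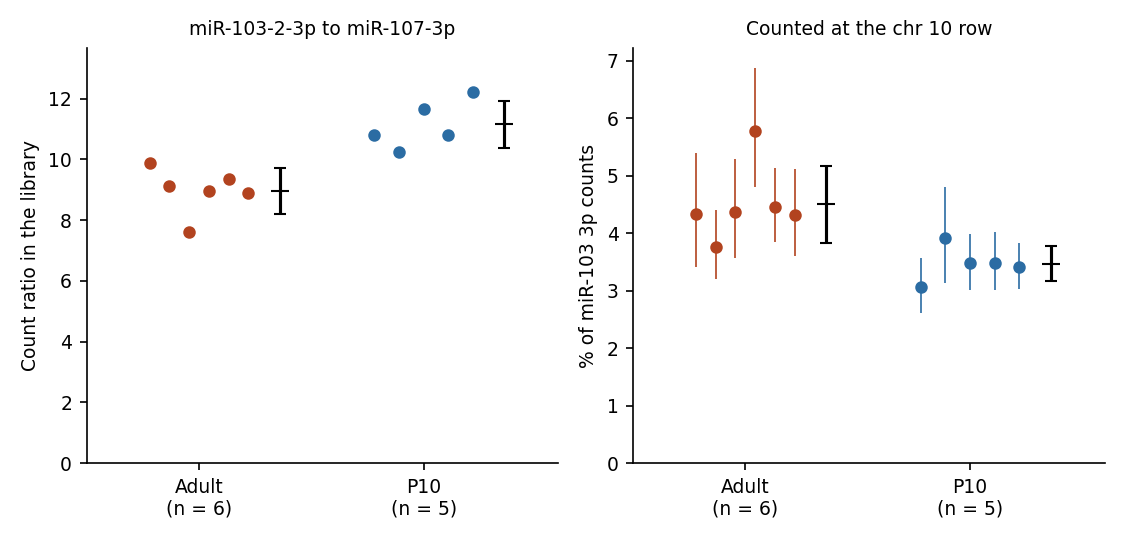
Left, counts of miR-103-2-3p per count of miR-107-3p in each library; right, percent of miR-103 3p counts at the chromosome 10 row with exact 95% binomial intervals (points: libraries; black: mean ± SD; axes from 0). The ratios lie between 7.60 and 9.87 in adults and between 10.3 and 12.2 at P10.

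The 5p arms, the strand that is mostly discarded, were close to absent. The chromosome 3 hairpin gave 1 count of miR-103-2-5p over the 6 adult libraries and 7 counts over the 5 P10 libraries, with at most 4 in a library. That is 0.00610% of the counts of both arms in adults (exact 95% interval 0.000154% to 0.0340%) and 0.0272% at P10 (0.0109% to 0.0559%), over 16388 and 25779 counts. miR-107-5p gave 3 counts in adults and 4 at P10, or 0.163% (0.0337% to 0.477%) and 0.176% (0.0479% to 0.449%) of both arms. All these intervals pool the reads of an age over its libraries and cover counting error only. The 7 P10 counts of miR-103-2-5p came from 2 of 5 libraries. Neither 5p row passed the abundance filter, and no hairpin of the family was among the 127 with both arms tested. With no filter the log2 changes were -1.68 ± 1.16 for miR-103-2-5p and 0.18 ± 0.96 for miR-107-5p (SE; edgeR adjusted p = 0.310 and 0.898). No difference in the 5p arms was detectable at this depth.

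Several other microRNAs carry the first 6 bases of miR-103 and miR-107, shifted by 1 position, so that their seed overlaps that of the family. RefSeq holds 6 such mature arms among the named features, of which 380 of 576 matched a RefSeq sequence by name. They are shown to compare the seed, in capitals.
miR-16-5p: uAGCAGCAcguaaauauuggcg
miR-15b-5p: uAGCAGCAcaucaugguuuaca
miR-195-5p: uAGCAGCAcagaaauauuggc
miR-497-5p: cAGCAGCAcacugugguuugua
miR-322-5p: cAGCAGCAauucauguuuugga
miR-503-5p: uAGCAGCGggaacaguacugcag
The shared bases start at position 1 in miR-103 and miR-107 and at position 2 in these arms, which belong to or lie close to the miR-15 and miR-16 family, known for restraining cyclins and other cell-cycle genes. miR-16-5p, the most abundant of them, was at 7911, 7755, 6856, 6948, 8764 and 7798 CPM in adult replicates 1 to 6, against 3557, 6488, 6934, 7045 and 10284 CPM in P10 replicates 1, 3, 4, 5 and 6. The P10 libraries spread on both sides of the adult range, and the log2 change was 0.16 ± 0.20 (SE; edgeR adjusted p = 0.506).

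The tested arms of this group that passed the age test fell, and each lay far below miR-16-5p in level. miR-322-5p, an X-linked member, was at 112 ± 33.3 CPM in the 6 adult libraries and 336 ± 93.5 CPM in the 5 P10 libraries (SD), and fell 3.00-fold (edgeR adjusted p = 0.000142). Its partner arm miR-322-3p fell 3.75-fold (edgeR adjusted p = 1.07e-05). miR-15b-5p fell 1.48-fold, to 91.8 ± 12.1 CPM in the 6 adult libraries, against 136 ± 17.3 CPM in the 5 P10 libraries (SD; edgeR adjusted p = 0.00369). miR-195-5p and miR-497-5p, which share a cluster, had log2 changes of -0.089 and -0.23 and did not pass (edgeR adjusted p = 0.725 and 0.295). Over the whole list of seed neighbours, both arms included, 9 of 11 features were tested. Of these 5 fell (miR-322-5p, miR-322-3p, miR-15b-5p, miR-15b-3p and miR-503-3p), 0 rose and 4 did not pass; miR-503-5p was among the untested. The median log2 change was -0.57, against -0.11 for all tested features. For the 5 tested arms with the overlapping seed alone the median was -0.23, and 2 (40%) passed, both lower. Over the whole list the number called was 3 without adult replicates 2 or 5, or P10 replicates 4, 5 or 6, each left out alone. As a share, 55.6% of the list passed, close to the 50.8% of all tested features, and the share lower over all features was 29.5%. All adult libraries also held less of the mesenchymal list than any P10 library. With that list in the fit the median log2 change was -0.53 with a median SE of 0.42, and miR-322-5p had -0.53 ± 0.43 and miR-15b-5p -0.62 ± 0.29 (SE; edgeR adjusted p = 0.4996 and 0.223). The 1 seed neighbour that passed there was miR-195-5p, with a log2 change of 1.01 ± 0.24 (SE; edgeR adjusted p = 0.0224), where it was -0.089 without the list.

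The 6 arms with the overlapping seed summed to 8035 ± 715 CPM in the 6 adult libraries and 7510 ± 2445 CPM in the 5 P10 libraries (SD). The 3 rows of miR-103 and miR-107 summed to 1660 ± 76.6 CPM in adults and 1723 ± 114 CPM at P10. The P10 sum of the overlapping-seed arms ran from 4048 CPM in replicate 1 to 10947 CPM in replicate 6, while that of miR-103 and miR-107 ran from 1616 to 1848 CPM in the same 5 libraries.

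**Figure D4:**
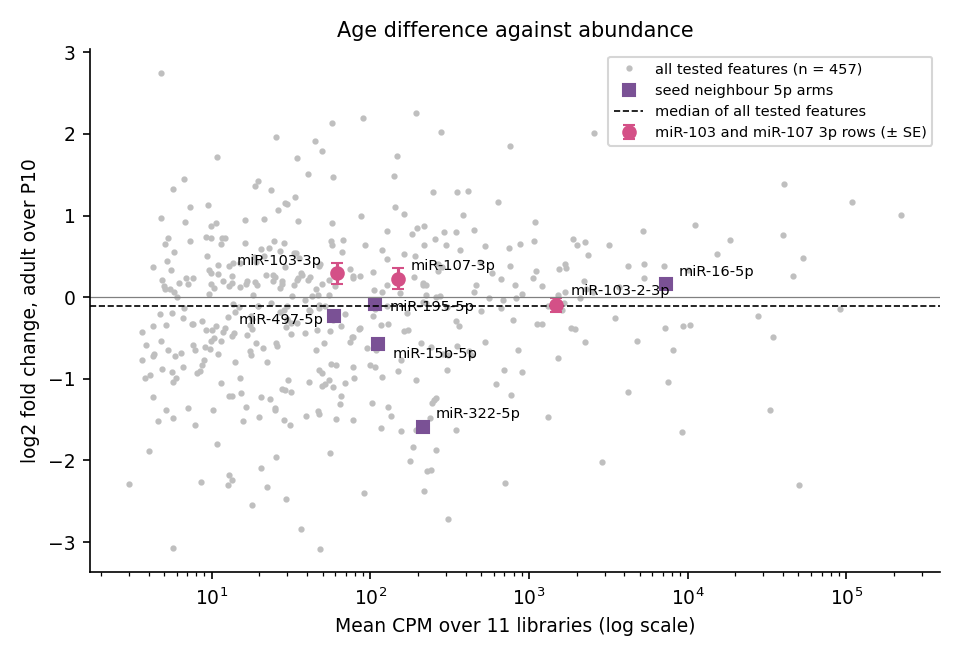
Log2 fold change, adult over P10, against mean CPM (log scale) for the 457 tested features, with the miR-103 and miR-107 3p rows (± SE) and the 5 tested arms with an overlapping seed. miR-103-2-3p lies on the dashed median of all features, and miR-322-5p lies lowest of the marked arms at a log2 change of -1.58.

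**Figure D5:**
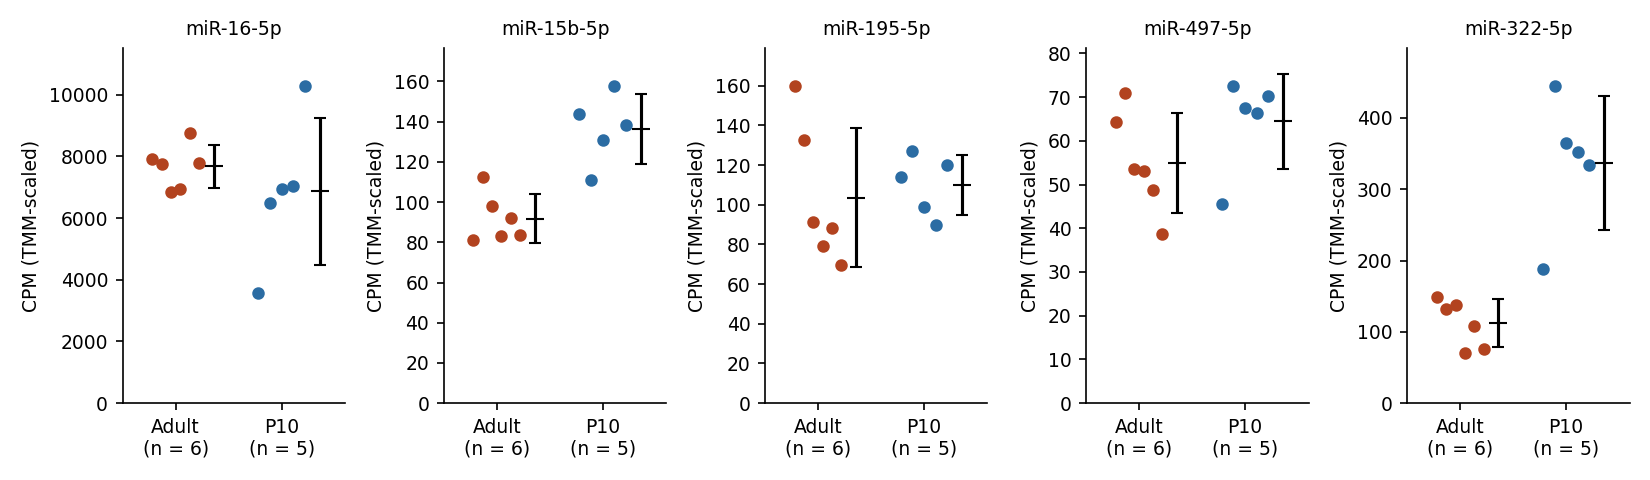
Level of the 5 tested arms with an overlapping seed in every library, in TMM-scaled CPM on axes from 0 (points: libraries; black: mean ± SD). Adult and P10 points overlap for miR-16-5p, miR-195-5p and miR-497-5p, and all adult points of miR-322-5p lie below every P10 point.

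Likeness of profile to the miR-103 and miR-107 rows over the 11 libraries was the root mean square difference of log2 CPM after each feature was centred on its own mean, over 174 named features of at least 50 CPM. To miR-103-2-3p, miR-410-3p, an imprinted microRNA of the Dlk1-Dio3 region, was closest at 0.09, followed by miR-148b-3p (0.11), miR-341-3p (0.12), miR-23b-3p (0.13) and let-7a-5p (0.14), where the median of the candidates was 0.40. By this measure miR-107-3p was at 0.19 and the chromosome 10 row at 0.25, both farther from miR-103-2-3p than these. The measure includes counting noise, which was larger for these lower rows. Counting alone gave miR-107-3p a coefficient of variation of 5.97% in adults and 4.94% at P10. For the chromosome 10 row it gave 9.20% and 7.82%. The part of that noise in the distances was not tested. miR-107-3p was closest to let-7d-5p (0.10), then to miR-23b-3p (0.13), let-7c-2-5p, miR-98-5p and let-7a-5p (each 0.15). Since the measure spans both ages, features close to a row that differed little between ages must also differ little. All share the libraries and the scaling with the rows they were compared with.

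In mean level miR-103-2-3p stood between miR-381-3p, at 1544 CPM in adults and 1514 CPM at P10, and miR-92a1-3p, at 731 CPM in adults and 2025 CPM at P10. miR-107-3p stood just below miR-433-3p, at 156 CPM in adults and 150.1 CPM at P10. Just below miR-107-3p came a feature without a microRNA name, at 107 CPM in adults and 200 CPM at P10. The chromosome 10 row also had neighbours without such a name. The one above was at 38.7 CPM in adults and 95.7 CPM at P10, the one below at 44.8 and 79.7 CPM.

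Features matched by name to other microRNAs known in mammals to lie in introns of protein-coding genes showed changes in both directions. The match took any locus or arm, miR-301b beside miR-301a among them, and the host of each listed feature was not checked. Of 48 such features 37 were tested, and 11 rose, 10 fell and 16 did not pass, with a median log2 change of 0.02. miR-26a-5p, from introns of C-terminal domain small phosphatase genes, rose to 7917 ± 846 CPM in the 6 adult libraries, against 6072 ± 918 CPM in the 5 P10 libraries (SD; edgeR adjusted p = 0.0151). miR-186-5p rose to 5944 ± 153 CPM in adults, against 4494 ± 638 CPM at P10 (edgeR adjusted p = 0.00514), and miR-152-3p had a log2 change of 0.85 (edgeR adjusted p = 0.000471). miR-93-5p, from an intron of the replication factor gene Mcm7, fell 2.45-fold (edgeR adjusted p = 4.71e-06). The whole list called 21 of 37 (56.8%), against 50.8% of all tested features. With the mesenchymal list in the fit, where few features pass at all, 1 of 37 did, with a median log2 change of 0.22 and a median SE of 0.39, against a median SE of 0.19 without it.

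Among microRNAs linked to insulin action in liver, fat or muscle, 25 of 31 features were tested, and 6 rose, 1 fell and 18 did not pass, with a median log2 change of 0.19. let-7c-1-5p was at 5699 ± 553 CPM in the 6 adult libraries and 4838 ± 542 CPM in the 5 P10 libraries (SD) and did not pass (edgeR adjusted p = 0.0737). miR-143-3p, also a mesenchymal marker, was at 29200 ± 15068 CPM in adults and 41009 ± 11396 CPM at P10 (edgeR adjusted p = 0.174). The smallest p-values were those of miR-29b2-3p, which rose to 88.3 ± 20.6 CPM in adults, against 19.8 ± 7.15 CPM at P10 (edgeR adjusted p = 1.13e-05), and of miR-29b1-3p, the same arm at another locus, whose reads the counting could split. The feature that fell was let-7i-5p, at 3967 ± 627 CPM in adults and 5748 ± 317 CPM at P10 (edgeR adjusted p = 0.00134). The list called 7 in all (28%, against 50.8% of all tested features). It called 13 without P10 replicate 1, 11 with DESeq2's size factors and 12 with upper-quartile scaling. Over all features those fits called 225 of 458, 235 of 457 and 230 of 457. How far the list lay below the share of all features therefore depended on the fit.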

How the data were processed

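Small RNA libraries of rat islets (6 adult, 5 P10) were made from Trizol-extracted RNA with an Illumina TruSeq kit, per the labels' protocols, which state no molecular identifiers. The authors deposited raw read counts for each mature arm at its locus (Rnor_5.0, per the file headers). The submitters' processing notes name rn5, edgeR and DESeq without their role. For the aligner, counting rule and annotation, a statement is not given in the sources used here. Each table per library held the same counts as the series table (950 rows, 7 of them repeats of a name and place, 110 antisense, of which 0 were miR-103 or miR-107).

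Where several rows had 1 name, the highest count was kept. edgeR 4.0.16 in R 4.3.3 (filterByExpr, TMM, robust quasi-likelihood) fitted age, adult over P10, to all libraries, and p-values were adjusted by Benjamini-Hochberg over all tested features. log2 CPM used a prior count of 2. limma 3.58.1 and DESeq2 1.42.0 were alternatives. Within-library measures used exact permutation over all splits. The scripts were tested on simulated data. All pairs of libraries of the same age differed beyond counting noise (chi-square at least 11.7 times its degrees of freedom).

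The members, lists and tests were chosen with earlier results of these data known. All rows of the family are named, as are, for the lists of seed neighbours, intronic and insulin-linked microRNAs, the 2 features highest in CPM and the 2 with the lowest p, the 5 features most like each main row, and neighbours in level. The remaining arms with an overlapping seed, miR-15b-3p, miR-503-3p, let-7i-5p, miR-375-3p and miR-141-3p were named after their values were seen. Alternatives were other scalings, filters and tests, rows of 1 name summed, the miR-103 loci entered once, the replicate number as a block, each library left out and, added later, the mesenchymal list as a covariate and the 3p rows summed.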

Additional observations from a re-analysis of the deposited data

Results flagged for a closer look

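Of 14 groups examined (7 measures at 2 ages), 2 held a library far from the others, where chance marks about 1 group in 20. In adult replicate 3 miR-107-3p was at 198 CPM, while the other adult libraries lay between 142 and 161 CPM; the gap took 0.654 of the range. Without that library its log2 change was 0.18 (edgeR adjusted p = 0.232). In adult replicate 4 the chromosome 10 row held 5.78% of the miR-103 3p counts, while the other adult libraries lay between 3.77% and 4.46%; the gap took 0.656 of the range. Without it the difference between ages was 0.777 percentage points.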

How the results depend on the processing

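With each library left out in turn, the log2 change ran from -0.12 to -0.07 for miR-103-2-3p, from 0.18 to 0.27 for miR-107-3p and from 0.23 to 0.33 for miR-103-3p, and none passed (edgeR). The log2 ratio of miR-103 to miR-107 ran from -0.35 to -0.27, the chromosome 10 share difference from 0.777 to 1.18 percentage points and the share of miR-103-2-3p from -0.0474 to -0.0300 points, all at an exact permutation p under the threshold; that of miR-107-3p ran from -0.000997 to 0.000458 points and turned positive without adult replicate 1 (0.000227) or P10 replicate 1 (0.000458). Features called ran from 197 to 229 over all features, from 3 to 5 among seed neighbours, from 16 to 21 among intronic microRNAs and from 7 to 13 among those linked to insulin action. By setting, miR-103-2-3p changed by -0.36 with library totals alone (passed) and 0.067 with upper-quartile scaling. miR-107-3p changed by -0.038 with library totals alone, and passed at 0.32 with DESeq2's size factors, 0.40 with upper-quartile scaling and 0.32 with DESeq2; miR-103-3p passed at 0.39, 0.46 and 0.39. The cause was not tested. The mesenchymal covariate left 28 calls over all features, 1 among seed neighbours, 1 among intronic microRNAs and 3 among those linked to insulin action, at larger median SEs (0.44 against 0.22 over all features). Seed neighbours numbered 3 with a mean CPM of at least 10 and 3 with the replicate block. Over all features those settings called 201 of 380 and 205 of 452. Insulin-linked calls numbered 11 with DESeq2's size factors, 12 with upper-quartile scaling and 12 with DESeq2. The calls over all features were 235, 230 and 248 of 457 there. Without miR-375-3p in the total the share differences were -0.0237 (miR-103-2-3p) and 0.00196 points (miR-107-3p). The chromosome 10 row in place of chromosome 3 turned the log2 ratio to 0.067. With both miR-103 rows summed the log2 ratio was -0.30 (exact permutation p = 0.00433). The share difference of the summed rows was -0.0379 points (exact permutation p = 0.0130).

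Replicate numbers did not pair the libraries (correlations of deviations from -0.21 to 0.20 over 5 numbers; 1 of 5 adult libraries correlated best with its own number). With the replicate block 205 features were called, the log2 ratio was -0.32 and the chromosome 10 difference 1.18 points, each with an exact p of 0.0625, the smallest that 5 pairs can give. Depth limits the 5p arms, whose 15 counts in all gave SEs of 1.16 and 0.96 with no filter.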
